A study of Rattus norvegicus with 12 samples.

Results

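The genes described here are 9 components of the pathways through which the heart enlarges in response to exercise: Cebpb, Cited4, Igf1, Igf1r, Akt1, Nrg1, Erbb2, Erbb4 and Mstn. They were chosen by symbol, for their known roles, with earlier results of these data already known. All 9 were found among the 34700 genes of the deposited table. They were measured by mRNA sequencing of the left ventricle of 12 male Sprague-Dawley rats, operated on at 8 weeks of age. In the Sham group a thread was passed round the anterior descending coronary artery without tying it. In the HF group the artery was ligated, so that heart failure followed a myocardial infarction, and the rats stayed sedentary. In the HFE group rats with the same ligation ran on a treadmill for 60 min on 5 days a week over 8 weeks. In the BAIBA group ligated rats received β-aminoisobutyric acid, a small molecule that contracting muscle releases, by gavage at 75 mg/kg a day for 8 weeks. The methods describe the exercise and BAIBA studies separately, each with Sham and HF groups. In the BAIBA study Sham and HF rats were gavaged with water alone, and no gavage is described for the exercise study. Which study supplied the sequenced Sham and HF rats is not stated. In BAIBA against HFE, study and gavage therefore cannot be told apart from treatment, and the same may hold for comparisons with HF or Sham. A supplementary outline instead puts BAIBA in the Sham and HF groups, and the labels, which give it to a ligated group only, were followed here. Each group held 3 rats, hearts were taken 12 weeks after surgery, and no exercised sham rats were analysed here.

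Exercise enlarges the heart in a way that preserves its function, and this growth runs partly through IGF-1, its receptor and the kinase Akt. C/EBPβ, a transcription factor encoded by Cebpb, is known to be lowered by endurance exercise in the rodent heart, and CITED4, a transcriptional co-regulator that C/EBPβ holds down, is known to be raised with it. Neuregulin-1, released by the cardiac endothelium, acts on cardiomyocytes through ErbB4 and its partner ErbB2, and myostatin, encoded by Mstn, restrains the growth of muscle.

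Total counts ran from 14812541 to 19732588 per rat. Levels were expressed as counts scaled to the library total with TMM factors (CPM), and as the authors' FPKM, which also divides by gene length, where genes are compared with each other. Markers of cardiomyocytes dominated every library, with a summed level of 37400 to 46900 CPM over 8 genes, against 1140 to 2290 CPM for 8 fibroblast and scar genes and 427 to 754 CPM for 5 endothelial genes. No marker list summed to 0 in any rat. The 5 atrial markers summed to 23.3 to 76.5 CPM in Sham and 11.1 to 58.8 CPM in the ligated rats. The study's methods state that tissue came from the anterior wall of the left ventricle, and in the BAIBA group from around the infarct. Elsewhere the study names the region bordering the infarct for HF as well. Where the site differed, it and the treatment cannot be told apart in the comparisons with BAIBA. Whether a lower level means fewer cells of a type or less RNA per cell cannot be told apart in whole tissue.

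The upstream sequences of Cebpb and Cited4 are shown because the pair forms the known exercise switch. RefSeq (GRCr8) gave a promoter for 7 of the 9 genes. The 250 bases before the annotated start are printed for chr3:176816755-176817004 (Cebpb, plus strand) and chr5:139531915-139532164 (Cited4, plus strand), 5′ to 3′. Capitals mark core promoter motifs, searched on both strands.
Cebpb: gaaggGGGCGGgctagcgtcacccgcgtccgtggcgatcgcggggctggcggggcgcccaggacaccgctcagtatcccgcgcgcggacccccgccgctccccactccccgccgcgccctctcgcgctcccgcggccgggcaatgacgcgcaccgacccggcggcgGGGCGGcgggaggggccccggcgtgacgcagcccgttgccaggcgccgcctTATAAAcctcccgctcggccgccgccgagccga
Cited4: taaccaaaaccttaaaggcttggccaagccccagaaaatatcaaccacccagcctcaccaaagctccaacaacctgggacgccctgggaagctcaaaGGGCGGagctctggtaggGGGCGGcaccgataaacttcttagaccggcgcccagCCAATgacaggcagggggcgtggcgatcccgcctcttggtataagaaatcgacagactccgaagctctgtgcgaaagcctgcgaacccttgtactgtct
The Cebpb window had a GC content of 80.0%, a TATA box at -33 and GC boxes at -245 and -84, counted from the start. The Cited4 window had a GC content of 56.8%, a CCAAT box at -99 and GC boxes at -153 and -135. The TATA box was searched as the letters TATAAA, which 12.9% of 33469 rat promoters held over the same length. The CCAAT box was searched by the letters of its name and was found in 34.0% of promoters. The GC box was searched as GGGCGG, found in 30.5% of promoters and in 5 of the 7 given here. The C/EBP motif TTGCNNAA, present in 9.22% of all promoters, was in none of the 7 windows, Cited4 included. The forkhead motif GTAAACA (3.21% of promoters) and the CArG box (1.5%) were also in none. A match is a description of the sequence, and the absence of one says only that these letters are not in this window.

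The 9 genes spanned a wide range of levels per length. Akt1 had the highest mean over 12 rats, 80.02 FPKM, above 98.2% of all genes, and its lowest rat lay above the highest rat of Igf1. Igf1 averaged 22.8 FPKM and Cited4 9.839 FPKM, and the rats of these neighbours overlapped. Cited4 in turn lay above Cebpb (2.604 FPKM) in every rat. Igf1r (1.526 FPKM), Erbb2 (1.003), Erbb4 (0.4443), Mstn (0.382) and Nrg1 (0.07627) followed, each overlapping its neighbour. Nrg1 was close to the limit of these libraries, with 0 to 29 counts per rat, and did not reach the expression filter. It was kept in the tests because it is one of the chosen genes, while the other 8 passed.

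**Figure D1:**
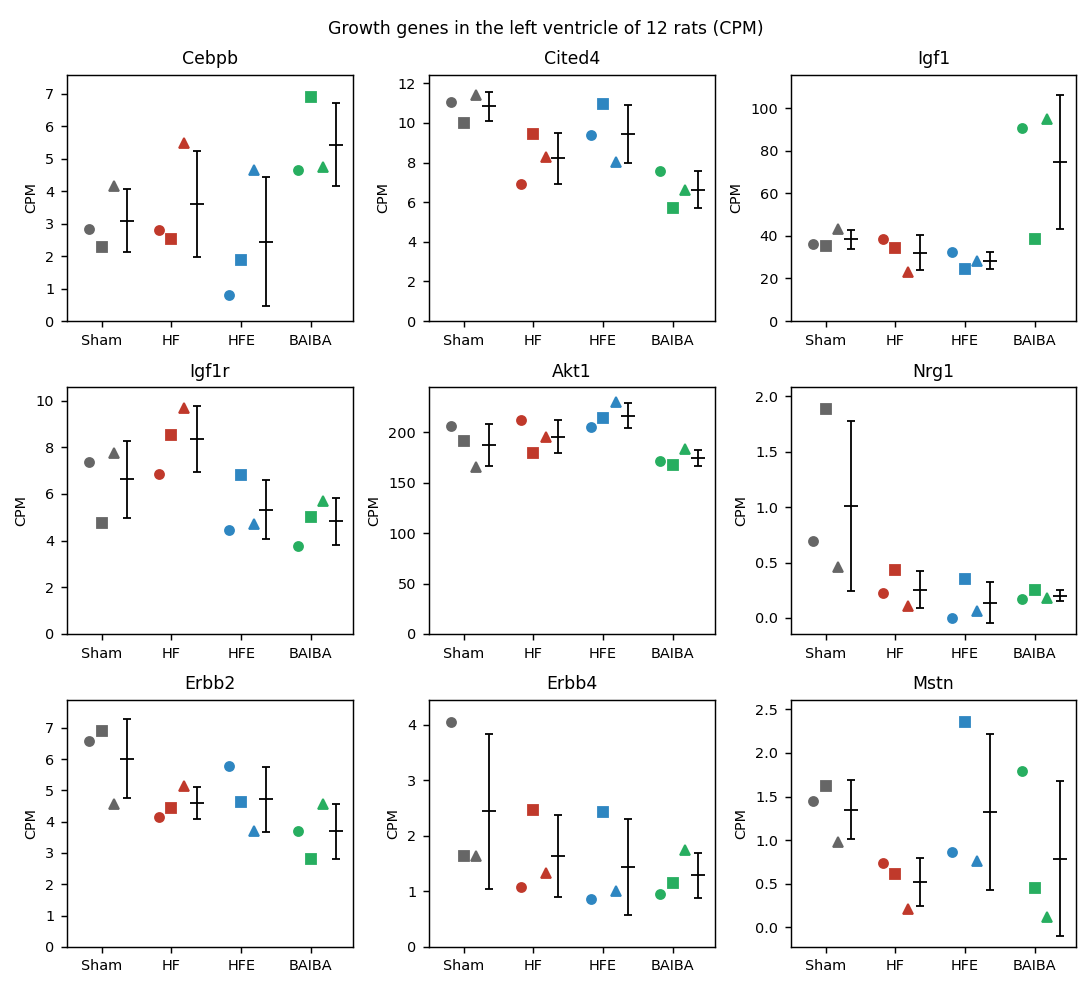
Level of each of the 9 genes in CPM (vertical axes) for Sham, HF, HFE and BAIBA. Circles, squares and triangles are rats 1, 2 and 3 of a group, and the black bar gives the mean ± SD (n = 3). Igf1 stands high in BAIBA rats 1 and 3, at 90.86 and 94.66 CPM, and Nrg1 is lower in all ligated rats than in any Sham rat.

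A gene was called where edgeR's quasi-likelihood test over all genes gave an adjusted p (Benjamini-Hochberg) below 0.05 together with a log2 fold change beyond 1 either way. No member passed in any comparison. In HF against Sham the test called 0 of 14958 genes (0%), in HFE against HF 0 of 14939 (0%), in BAIBA against HF 0 of 15040 (0%), in BAIBA against HFE 12 of 14845 (0.0808%), and in all ligated rats against Sham 0 of 15618 (0%). Calls depended on the tool, since DESeq2 called 24, 20, 27, 155 and 10 genes in the same order, and 1 member, Igf1, in BAIBA against HFE. At an unadjusted p under 0.05 the members passed 3, 1, 2, 3 and 3 times of 9, where 6.01%, 7.64%, 5.52%, 9.57% and 6.36% of all genes did. Adjusted p-values given per gene are from the edgeR fits over all genes, and values called higher or lower describe these rats. Groups that do not overlap made up 11.7%, 14.3%, 11.4% and 15.6% of all genes in the comparisons of 3 rats with 3, and 1.02% with 9 against 3. Members did not overlap in 3, 2, 1, 3 and 1 cases, all judged in CPM. A two-sided exact permutation test of 3 rats against 3 cannot go below p = 0.1.

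Cited4 was lower in HF than in Sham. Sham rats had 11.05, 10.02 and 11.42 CPM and HF rats 6.901, 9.435 and 8.291 CPM, so the groups did not overlap. The log2 fold change was -0.40 (SE 0.157, adjusted p = 0.804). HFE rats, at 9.387, 10.95 and 8.006 CPM, reached between HF and Sham, and differed from HF by 0.21 (95% interval -0.22 to 0.64). BAIBA rats had the lowest level, 7.562, 5.696 and 6.616 CPM, below all HFE rats in CPM, with a log2 fold change of -0.51 against HFE (SE 0.189, adjusted p = 0.440). The separation of BAIBA from HFE depended on the scaling. In FPKM, BAIBA rat 1 (9.084, from 135 counts) lay above HFE rat 3 (8.632, from 127 counts). Of the 9 ligated rats, 8 lay below every Sham rat, and the exact permutation p was 0.0364 for a log2 fold change of -0.43 (SE 0.134, edgeR adjusted p = 0.736).

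Cebpb varied among rats more than between groups. It ran at 2.836, 2.276 and 4.175 CPM in Sham, 2.795, 2.528 and 5.474 CPM in HF, and 0.7989, 1.872 and 4.665 CPM in HFE, so that HFE held both the lowest rat and a rat near the top of HF. BAIBA rats had 4.649, 6.912 and 4.751 CPM, 2 of them above all HFE rats. The log2 fold change was -0.55 in HFE against HF (95% interval -2.03 to 0.93) and 1.14 in BAIBA against HFE (SE 0.552, adjusted p = 0.572). Without HFE rat 3 these values were -1.43 and 2.02, and without HFE rat 1 they were -0.13 and 0.73. BAIBA had the highest mean of Cebpb, 5.44 ± 1.28 CPM (SD, n = 3), and the lowest of Cited4, 6.63 ± 0.933 CPM. After removing group means, the correlation of log2 levels of the pair over 12 rats was r = -0.298 (exact permutation p = 0.542) and rho = -0.0559 (exact permutation p = 0.900). Leaving out the 2 rats farthest from the median of Cebpb gave r = -0.325.

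**Figure D2:**
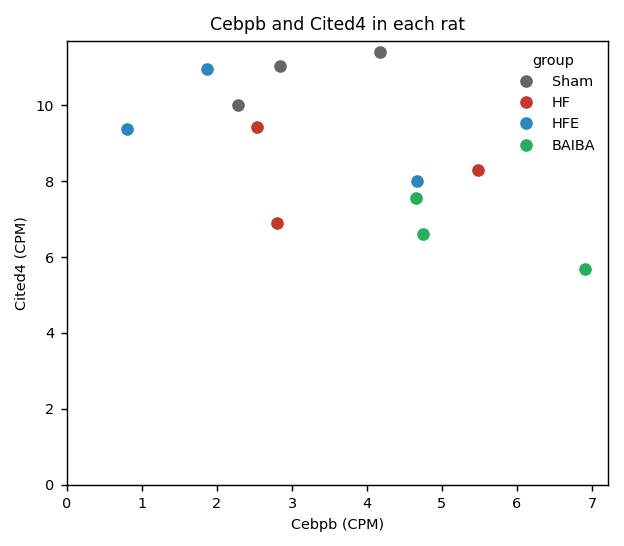
Cebpb (horizontal axis, CPM) against Cited4 (vertical axis, CPM), 1 point per rat, coloured by group. BAIBA rats lie at the lower right, with Cebpb of 4.649 to 6.912 CPM and Cited4 of 5.696 to 7.562 CPM, while HFE spreads from 0.7989 to 4.665 CPM of Cebpb.

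Igf1, the growth factor itself, was highest in BAIBA. Sham rats had 36.35, 35.25 and 43.32 CPM, HF rats 38.73, 34.53 and 22.85 CPM, HFE rats 32.62, 24.26 and 28.37 CPM, and BAIBA rats 90.86, 38.34 and 94.66 CPM. All BAIBA rats lay above all HFE rats, and 2 of 3 above all HF rats, with BAIBA rat 2 inside the HF range. The log2 fold change was 1.40 against HFE (SE 0.348, adjusted p = 0.263) and 1.22 against HF (SE 0.375, adjusted p = 0.851). DESeq2 gave the same size against HFE with an adjusted p of 0.000535. Leaving out each rat in turn, edgeR gave 1.19 to 1.71 against HFE. The edgeR adjusted p ran from 0.0139 without BAIBA rat 2 to 0.689 without HFE rat 2. In HF against Sham and HFE against HF the differences were -0.26 (95% interval -0.73 to 0.21) and -0.17 (-0.67 to 0.33).

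Marker sums of other cells also varied between libraries, and mesothelial sums were highest in the libraries high in Igf1. The 4 mesothelial genes summed to 73.3, 23.8 and 39.8 CPM in BAIBA rats 1, 2 and 3, where the other 9 rats ran from 18.1 to 24.1 CPM. Msln alone, 1 of the 4, gave 36.3, 1.024 and 10.22 CPM of the BAIBA sums. In BAIBA against HFE 2 of the 4 were tested, of which 1 had a log2 fold change above 0. The 6 macrophage genes summed to 250, 118 and 142 CPM in BAIBA and 96.2, 68.8 and 82.0 CPM in HFE, and 5 of 6 had an unadjusted p under 0.05 in BAIBA against HFE. The fibroblast and scar genes summed to 2290, 1510 and 1640 CPM in BAIBA. Their ranges were 1560 to 1690 CPM in Sham, 1210 to 1780 in HF and 1140 to 1590 in HFE, and only BAIBA rat 1 exceeded these. The part of these cells in the Igf1 difference was not tested. Macrophage sums ran from 122 to 141 CPM in Sham and reached 190 CPM in HF, in the HF rat with the lowest Igf1.

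**Figure D3:**
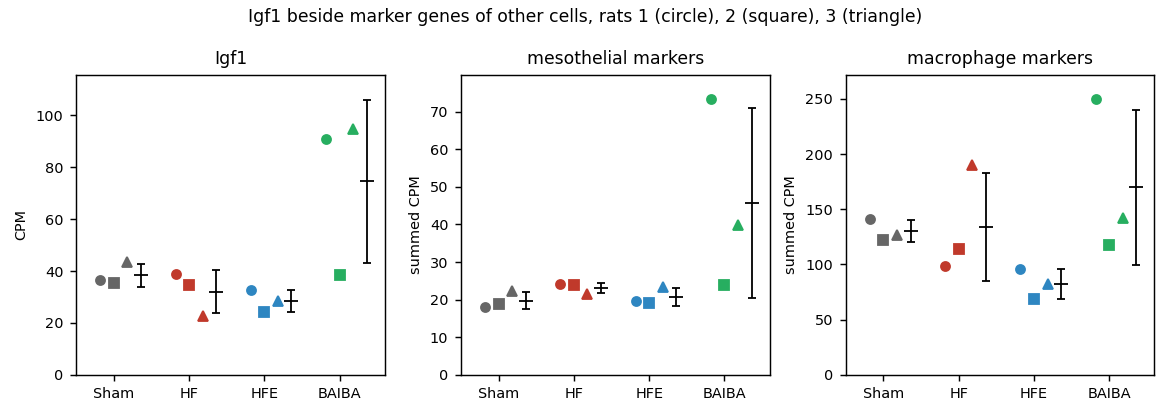
Igf1 (CPM) beside the summed CPM of 4 mesothelial and 6 macrophage marker genes, by group, with rats 1, 2 and 3 as circle, square and triangle and the mean ± SD as a black bar. BAIBA rats 1 and 3, high in Igf1, also have the highest mesothelial sums, 73.3 and 39.8 CPM.

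Igf1r, the receptor, had its highest mean in HF and was lower in the rats of both interventions. HF rats had 6.844, 8.51 and 9.673 CPM, HFE rats 4.46, 6.794 and 4.728 CPM, BAIBA rats 3.753, 4.992 and 5.714 CPM, and Sham rats 7.35, 4.748 and 7.763 CPM. HF did not overlap with HFE or with BAIBA, though HFE rat 2 lay close to HF rat 1, and both comparisons share the HF rats. The log2 fold change was -0.64 in HFE (SE 0.226, adjusted p = 0.629) and -0.79 in BAIBA (SE 0.228, adjusted p = 0.851). HF and Sham overlapped, at 0.33 (95% interval -0.22 to 0.87). Across rats within groups, Igf1 and Igf1r gave r = -0.263 (exact permutation p = 0.495) and rho = -0.210 (exact permutation p = 0.590), and r = -0.413 without the 2 rats farthest from the median of Igf1.

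Akt1, the kinase downstream of the receptor, had the smallest spread of group means in FPKM, with a ratio of highest to lowest of 1.19. Its means were 187.6 ± 20.7 CPM in Sham, 195.7 ± 16.4 in HF, 216.5 ± 12.4 in HFE and 174.5 ± 8.05 in BAIBA (SD, n = 3 each). HFE rats had 205.3, 214.4 and 229.9 CPM and BAIBA rats 171.9, 168.1 and 183.6 CPM, without overlap, at a log2 fold change of -0.31 (SE 0.0895, adjusted p = 0.288). Against HF the differences were 0.15 for HFE (95% interval -0.07 to 0.37) and -0.17 for BAIBA (-0.42 to 0.09). These are transcript levels, and Akt is activated by phosphorylation, which was not measured here.

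Nrg1, the ligand of the ErbB pair, was lower in every ligated rat than in any Sham rat. Sham rats had 0.6945, 1.886 and 0.4567 CPM, HF rats 0.2281, 0.4317 and 0.1063, HFE rats 0, 0.3466 and 0.06304, and BAIBA rats 0.1681, 0.256 and 0.1804 CPM. The lowest Sham rat (rat 3, 0.4567 CPM) lay just above the highest HF rat (rat 2, 0.4317 CPM). Both had 7 counts, so the full separation of Sham from the ligated rats depended on the scaling to library totals. For the 9 ligated rats against Sham the log2 fold change was -2.37 (SE 0.605, adjusted p = 0.691), and the exact permutation p was 0.00455, the smallest that 220 assignments allow. For HF alone it was -1.98 (95% interval -3.65 to -0.30, adjusted p = 0.804). Without Sham rat 2, which had the most Nrg1, the values were -1.57 and -1.18. Atrial marker sums had their highest mean in Sham, at 64.9, 23.3 and 76.5 CPM, with the lowest of these in Sham rat 2. They overlapped with the ligated rats, since HF rat 3 had 37.3 CPM and HFE rat 1, with 0 counts of Nrg1, had 58.8 CPM. The part of atrial tissue in the Nrg1 difference was not tested.

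Erbb2 and Erbb4 encode the receptors. Erbb2 was at 6.598, 6.894 and 4.567 CPM in Sham and 4.163, 4.44 and 5.156 CPM in HF, and 5 of the 9 ligated rats lay below every Sham rat (log2 fold change -0.48, SE 0.192, exact permutation p = 0.0455, adjusted edgeR p = 0.765). Its lowest mean was in BAIBA, 3.70 ± 0.877 CPM (SD, n = 3), with rats at 3.697, 2.816 and 4.571 CPM. HFE rats had 5.792, 4.645 and 3.719 CPM and did not separate from HF, at 0.04 (95% interval -0.48 to 0.57). Erbb4 was at 4.051, 1.626 and 1.631 CPM in Sham, 1.084, 2.467 and 1.329 in HF, 0.8655, 2.426 and 1.009 in HFE and 0.9523, 1.152 and 1.744 in BAIBA. The ligated rats against Sham gave -0.76 (95% interval -1.64 to 0.11), and -0.18 without Sham rat 1. Within groups, Nrg1 and Erbb4 gave r = 0.450 (exact permutation p = 0.285) and rho = 0.385 (exact permutation p = 0.374). Without the 2 rats farthest from the median of Nrg1 the value was r = 0.743 (exact permutation p = 0.132). Erbb2 and Erbb4 gave r = 0.207 (exact permutation p = 0.579) and rho = -0.0280 (exact permutation p = 0.945), and r = 0.349 without the 2 farthest rats. Of the 4 relations examined, none passed after adjustment, with an adjusted p of 0.579 for each r and 0.945 for each rho.

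Mstn, which encodes the growth restrainer, was lower in HF than in Sham and higher again in HFE. Sham rats had 1.447, 1.626 and 0.9786 CPM, HF rats 0.7414, 0.6167 and 0.2126, HFE rats 0.8655, 2.357 and 0.7565, and BAIBA rats 1.793, 0.448 and 0.1203 CPM. In CPM HF overlapped neither Sham nor HFE, while BAIBA spread from below the lowest HF rat to above the highest Sham rat. The separation of HF from HFE depended on the scaling. In FPKM, HFE rat 3 (0.2776, from 12 counts) lay below HF rat 1 (0.2992, from 13 counts). The log2 fold change was -1.37 in HF against Sham (SE 0.498, adjusted p = 0.804) and 1.33 in HFE against HF (95% interval -0.15 to 2.82, adjusted p = 0.656). Without HFE rat 2 the latter was 0.63. Both comparisons share the HF rats, and counts were 2 to 34 per rat.

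**Figure D4:**
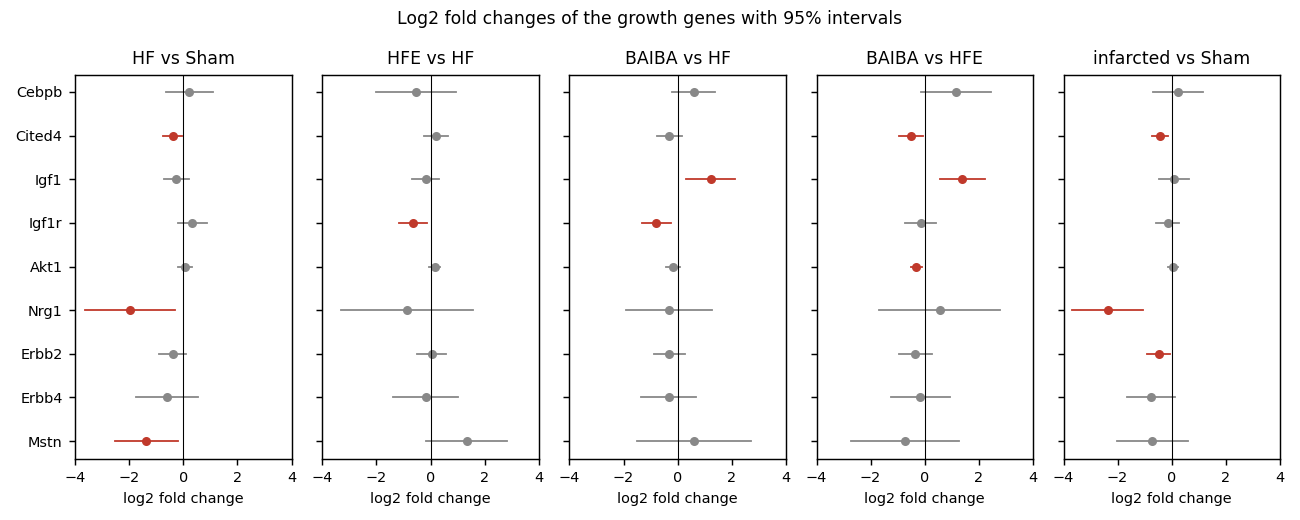
Log2 fold change of each gene (points) with its 95% interval (lines) from edgeR, in 5 comparisons, the last being all ligated rats against Sham. Red marks an unadjusted p under 0.05. Nrg1 is lowest relative to Sham, at -2.37 in all ligated rats, and Igf1 highest in BAIBA, at 1.40 against HFE and 1.22 against HF.

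In the wider IGF-1, PI3K and Akt list (36 genes, 35 tested), 8 genes were lower and 0 higher in HFE against HF at an unadjusted p under 0.05, which 7.64% of all genes passed. The median log2 fold change was -0.135 against -0.00943 over all genes, and no gene passed the adjusted threshold (lowest adjusted p = 0.629). Without HF rat 2 the median was -0.0616, with 7 lower and 1 higher, and without HFE rat 1 it was -0.0906, with 5 lower and 1 higher. Cell markers differed in the same comparison: 4 of 8 cardiomyocyte genes were higher and 0 lower at an unadjusted p under 0.05 (median 0.198), and 2 of 6 macrophage genes were lower and 0 higher (median -0.609). The part of these cells in the list was not tested. Besides Igf1r these included Pik3cb, a catalytic subunit of PI3-kinase (-0.68, adjusted p = 0.629), its regulatory subunit Pik3r1 (-0.64), the PI3-kinase inhibitor Pik3ip1 (-0.34), Mtor (-0.22), the mTOR inhibitor Tsc2 (-0.26) and the forkhead factor Foxo3 (-0.81). The list thus held activators and inhibitors of the pathway alike. Pik3cb stood at 7.357, 7.709 and 7.919 CPM in HF and 4.194, 5.199 and 4.917 CPM in HFE.

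In BAIBA against HFE the same list had 7 genes higher and 3 lower at an unadjusted p under 0.05, of 35, where 9.57% of all genes passed. The members Igf1 (higher) and Akt1 (lower), described above, are among them. Without HFE rat 1 there were 4 higher and 3 lower, and without HFE rat 2 there were 4 and 2. Cell markers differed in this comparison too, at the same unadjusted threshold. Higher were 3 of 8 fibroblast and scar, 5 of 6 macrophage and 3 of 5 erythroid genes, with 0 lower in each. Of 5 endothelial genes 0 were higher and 2 lower, and of 8 cardiomyocyte genes 1 was higher and 2 lower. The part of these cells in the list was not tested. Ddit4, an inhibitor of mTOR, was at 36.69, 48.77 and 52.56 CPM in BAIBA and 14.31, 22.6 and 23.2 CPM in HFE (1.20, SE 0.213, adjusted p = 0.135). Pik3ip1 was higher (0.45), as were the IGF-binding proteins Igfbp4 (1.13), Igfbp6 (1.56) and Igfbp7 (0.37), and the IGF-2 receptor Igf2r (-0.41) and the insulin receptor Insr (-0.29) were lower. Against HF, BAIBA had 3 higher, among them Igfbp7 (0.32, adjusted p = 0.851) and the member Igf1, and 2 lower, among them the member Igf1r. Of all genes 5.52% passed there. This balance rested on single rats, with 6 higher and 1 lower without BAIBA rat 2, and 2 higher and 6 lower without BAIBA rat 3. HF against Sham had 0 higher and 2 lower, where 6.01% of all genes passed. The lower genes were Igf2 (-0.80, adjusted p = 0.804) and Eif4ebp1 (-0.28), the latter a repressor of translation.

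**Figure D5:**
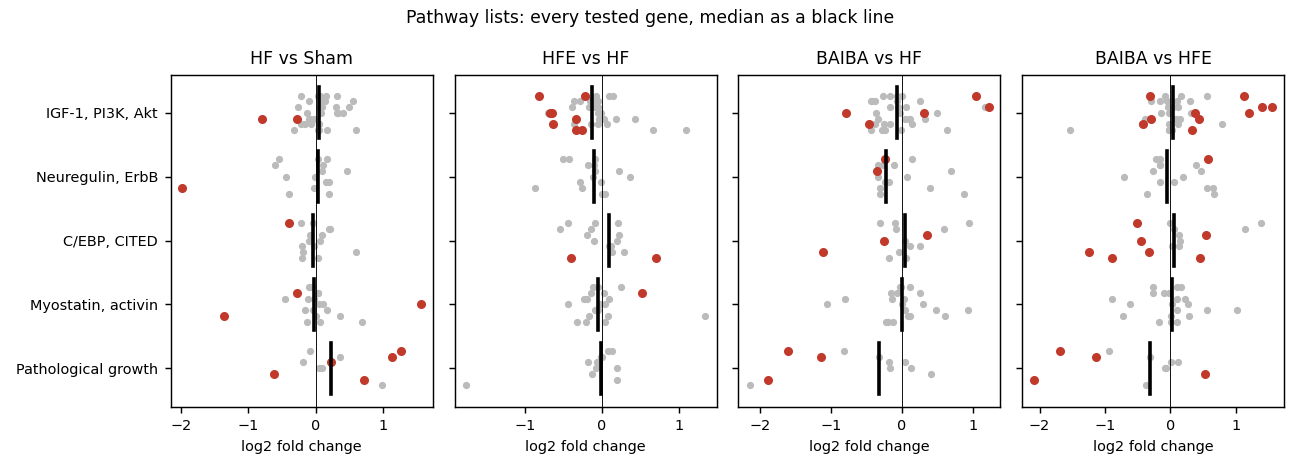
Log2 fold changes of every tested gene in 5 pathway lists (rows) in 4 comparisons, with the list median as a black line. Red points have an unadjusted p under 0.05. The IGF-1, PI3K and Akt row of HFE against HF has its 8 red points all below 0.

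Of the C/EBP and CITED factors and their partners, 15 of 18 were tested. In BAIBA against HFE 2 were higher and 5 lower at an unadjusted p under 0.05, where 9.57% of all genes passed. Without HFE rat 2 there were 1 and 4, without BAIBA rat 2 there were 2 and 3, and without BAIBA rat 3 there were 3 and 3. The cardiac factors Gata4 (-0.45, adjusted p = 0.204), Srf (-0.88) and Nkx2-5 (-0.33) were lower, as were Cited1 (-1.24) and Cited4, the member described above. Cited2 (0.46) and Cebpd (0.54) were higher. Gata4 stood at 72.54, 64.77 and 67.72 CPM in BAIBA and 98.53, 82.42 and 98.47 CPM in HFE. In HFE against HF 1 of the 15 was higher and 1 lower at an unadjusted p under 0.05, where 7.64% of all genes passed. The higher gene was Srf (0.71, adjusted p = 0.629), at 80.89, 79.65 and 142.1 CPM in HFE against 70.26, 56.92 and 58.31 CPM in HF.

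In the neuregulin and ErbB list, 2 of 16 tested genes were lower in BAIBA against HF at an unadjusted p under 0.05 (5.52% of all genes passed), the sheddase Adam10 (-0.24) and the protease Bace1 (-0.36). In the ligated rats 2 of 16 were lower than in Sham (6.36% of all genes passed), Nrg1 and Erbb2, and in BAIBA against HFE Erbb3 was higher (0.57, adjusted p = 0.362). HFE against HF had 0 of 15 at an unadjusted p under 0.05, where 7.64% of all genes passed. In the myostatin and activin list 21 of 24 genes were tested. In HF against Sham 1 was higher and 2 lower at an unadjusted p under 0.05, where 6.01% of all genes passed. The activin subunit gene Inhbb was higher (1.55, SE 0.511, adjusted p = 0.804), with overlapping groups, and Mstn and Gdf11 were lower. Gdf11, the closest relative of Mstn, was lower in HF than in Sham (-0.29, adjusted p = 0.804) and higher in HFE than in HF (0.52, adjusted p = 0.629), at 21.04, 21.14 and 27.99 against 16.37, 14.31 and 18.23 CPM. The activin receptor Acvr2b was lower in the ligated rats (-0.58, adjusted p = 0.779), below Sham in all 9.

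In the list of pathological growth genes (11 of 12 tested) Myh7 passed the call. Myh7, the slow myosin heavy chain of the stressed rodent ventricle, was at -2.08 in BAIBA against HFE (SE 0.128, edgeR adjusted p = 0.00236). BAIBA rats had 3107, 3589 and 3543 CPM and HFE rats 13920, 16610 and 12780 CPM. Against HF the BAIBA value was -1.89 (adjusted p = 0.333). Sham rats had 7468, 7749 and 7928 CPM, so BAIBA lay below Sham as well, while HF and HFE lay above it. Nppb, which encodes brain natriuretic peptide, was at -1.69 in BAIBA against HFE and -1.61 against HF, and at 1.26 in HF against Sham (adjusted p = 0.804). Myh6, the fast myosin of the adult rat heart, was at -0.62 in HF against Sham (adjusted p = 0.709). HFE against HF had 0 of 11 of these genes at an unadjusted p under 0.05, where 7.64% of all genes passed. The median log2 fold change there was -0.02.

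Over 12 rats and 13785 genes, the levels most like those of Cebpb belonged to Per2 (Pearson r = 0.928, rho = 0.902), Tsc22d3 (r = 0.906) and Rhobtb1 (r = 0.903). Per2, a component of the circadian clock, was at 23.63, 37.36 and 100.2 CPM in HFE, in the same order of rats as Cebpb. For Igf1 they were Spon1 (r = 0.942), Fam149a (r = 0.901) and Msln (r = 0.896), which was at 36.3, 1.024 and 10.22 CPM in BAIBA and is part of the mesothelial sum given above. For Cited4 they were Fzr1 (r = 0.936), RGD1563601 (r = 0.919) and Slc29a1 (r = 0.881), and for Mstn Tle4 (r = 0.889), Mefv (r = 0.882) and Ska2 (r = 0.877). These values include differences between groups, share the libraries, and were picked as the highest of all genes, so they are given without a test.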

How the data were processed

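Left ventricular mRNA of 12 rats was sequenced as oligo(dT)-selected paired-end libraries. The authors deposited raw counts per gene, and FPKM values computed from the same counts; the submitters' processing notes list HISAT2, StringTie, featureCounts, Subread and DESeq2 without versions. They also name the mouse build mm9, although the gene identifiers are rat Ensembl ones, so the build is uncertain and no coordinates from the files are given. The methods speak of an orientation mode for the alignment, and the strand setting of the counting is not given in the sources used here, so reads of overlapping antisense genes cannot be told apart.

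Counts were scaled by TMM, filtered with filterByExpr (the 9 genes were kept whatever the filter) and tested with edgeR 4.0.16 in R 4.3.3, 3 rats against 3, or 9 against 3 with all groups in the fit. Intervals are 95%, and p-values were adjusted over all genes tested. Single genes were also tested by exact permutation of log2(CPM + 0.1). DESeq2 1.42.0, RLE scaling, no filter, a fit of all 12 rats, a replicate block and leaving out each rat were alternatives. Scripts were tested on simulated data. Named genes were all 9 members, called genes of the pathway lists, up to 3 per list with the lowest unadjusted p under 0.05 and no overlap, further genes of the lists named after their values were seen, and the 3 genes most like Cebpb, Cited4, Igf1 and Mstn. The members and lists were chosen with earlier results of these data known. Some genes of the lists enter the counts but are not reported by name here. Nrg3, Epgn, Nrdp1, Ep300, Ccn2, Pecam1, Myh1 and Myh4 were not analysed here.

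Same-numbered rats are different animals. In BAIBA against HFE their deviations from the group means nevertheless correlated in every pair (r = 0.195, 0.265 and 0.139), a pairing seen in the data only. With this block 30 genes were called in place of 12, and Igf1 was at 1.30 with an adjusted p of 0.125.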

Additional observations from a re-analysis of the deposited data

How the results depend on the processing

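None of the 45 log2 fold changes of the members changed sign in 216 values under DESeq2, RLE scaling, no filter, all 12 rats or a replicate block, and 1, Igf1 in BAIBA against HFE, passed the call under DESeq2 (1.40, adjusted p = 0.000535). Leaving out a rat reversed 18 of 324 values. The ranges were -0.22 to 0.50 (Cebpb) and -0.012 to 0.14 (Akt1) in HF against Sham, -0.13 to 0.19 (Erbb2) and -0.79 to 0.24 (Erbb4) in HFE against HF, -0.69 to 0.26 (Nrg1), -0.62 to 0.083 (Erbb4) and -0.86 to 1.10 (Mstn) in BAIBA against HF, -0.28 to 0.068 (Igf1r), -0.0028 to 2.38 (Nrg1) and -0.44 to 0.45 (Erbb4) in BAIBA against HFE, and -0.060 to 0.52 (Cebpb) and -0.015 to 0.13 (Akt1) in the ligated rats.

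DESeq2 called 24 genes in HF against Sham, 20 in HFE against HF, 27 in BAIBA against HF, 155 in BAIBA against HFE and 10 in the ligated rats, and the cause was not tested. Without the filter 2, 2 and 30 genes were called in HFE against HF, BAIBA against HF and BAIBA against HFE. The fit of all 12 rats called 1 in BAIBA against HF and 3 in BAIBA against HFE, and the replicate block called 30 in BAIBA against HFE. Leaving out a rat gave 0 to 4 genes called in HF against Sham and in BAIBA against HF, 3 to 20 in BAIBA against HFE and 0 to 1 in the ligated rats. Members called were 0 to 1 in BAIBA against HFE. Members at an unadjusted p under 0.05 numbered 0 to 3 in HF against Sham, 0 to 2 in HFE against HF, 1 to 3 in BAIBA against HF, 2 to 4 in BAIBA against HFE and 1 to 4 in the ligated rats. The replicate block gave 2 of them in HFE against HF. Outside BAIBA against HFE same-numbered rats did not deviate together (mean r -0.0204, 0.0287 and 0.0401), so the block there pairs rats that share only a number. The 8 lower genes of the IGF-1 list in HFE against HF were 5 to 9 over all settings, beside 0 to 2 higher, a check chosen after seeing the data.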
